A study of Mus musculus with 16 samples.

Results

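The receptors for the colony-stimulating factors are encoded in the mouse by 5 genes, Csf1r, Csf2ra, Csf2rb, Csf2rb2 and Csf3r, and these were followed through the immune cells of untreated and irradiated tumors. They were chosen by gene symbol, with no use of their measured values, and they are 5 of the 31053 genes counted in each library. The identifiers in the files are ENSMUSG00000024621 for Csf1r, ENSMUSG00000059326 for Csf2ra, ENSMUSG00000071713 for Csf2rb, ENSMUSG00000071714 for Csf2rb2 and ENSMUSG00000028859 for Csf3r.

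Colony-stimulating factors are secreted proteins that keep myeloid cells alive and drive their growth and maturation. Csf1r is a receptor tyrosine kinase that binds CSF-1 and IL-34 and is known as the survival receptor of monocytes and macrophages. Csf2ra is the ligand-binding chain of the GM-CSF receptor, and it signals only together with the common beta chain Csf2rb, which the receptors for IL-3 and IL-5 also use. Csf2rb2 is a second beta chain, found in mice, that pairs with the IL-3 receptor. Csf3r is the receptor for G-CSF and is best known on neutrophils and their precursors.

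Live CD45+ cells, that is cells with the surface marker of white blood cells, were sorted from tumors of C57BL/6J mice and profiled by droplet single-cell RNA sequencing of the 3' ends of transcripts. There were 4 groups with 4 libraries in each, MC38 and Panc02-SIY tumors that were either untreated (NT) or radiation treated (RT). Both are transplanted mouse tumor lines, MC38 of the colon and Panc02-SIY of the pancreas, and both were grown under the skin of the right flank. The irradiated tumors received a single dose of 12 Gy and were harvested 24 h later. All groups share the mouse strain, the flank site, an enrichment for CD45+ cells on magnetic beads and the sort. The labels name each library as a replicate, but do not tie it to an animal, and the sources differ on the number of animals in a group. Each p-value given here therefore measures the spread between libraries, which may be partly technical.

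The files hold 28678 cell barcodes. In MC38, 9843 barcodes reduced to 2632 distinct ones, of which 1239 (47.1%) occurred in more than 1 library and 769 in all 8 libraries, against 187 of 18136 (1.03%) in Panc02-SIY. Each barcode was therefore kept only in the library of its tumor in which it had the most transcript counts (UMIs), which left 20768 barcodes. For MC38 barcodes found in more than 1 library, that library held a median of 76.4% of the UMIs. The 769 barcodes in all 8 libraries occurred in both NT and RT, so their treatment is uncertain. The p-values treat MC38 libraries as independent, which was not tested. The kept barcodes numbered 147 to 609 in a MC38 library and 1113 to 4452 in a Panc02-SIY library, with 1385711 to 8500889 and 5275195 to 43708746 UMIs. Total UMIs of a library thus ranged lower in MC38. The median per kept barcode was higher in MC38, at 9023 and 6158 UMIs in NT and RT, against 5928 and 4758 in Panc02-SIY. Cells were clustered without the 5 receptor genes, and clusters were named from marker lists that do not contain them. A level is given in CPM, the UMIs of a gene per 1000000 UMIs of that population in a library.

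The names follow from the marker lists and were not checked by other means. Several clusters had mixed or unclear markers that bear on the receptors. The macrophage-like class held 2135 barcodes, but it lay in different clusters in the tumors, since cluster 7 held 549 and 482 barcodes of MC38 NT and RT against 11 and 51 of Panc02-SIY NT and RT. Cluster 20, with 113 and 52 barcodes, occurred in Panc02-SIY alone. It had Mki67, a gene of dividing cells, among its leading genes, beside Cd300e, Klra17, Lpl and Fcrl5, which also led cluster 6. Cluster 6, with 1096 barcodes of Panc02-SIY and 0 of MC38, raised 9 of 12 macrophage markers but also had the DC1 marker Cadm1 among its leading genes, and it was left without a name and described on its own. The naming of these cells changed at a clustering resolution of 2. There a Panc02-SIY cluster of 1055 barcodes led by Fcgr4, Fcrl5 and Cd72 was named macrophage, and a cluster of 165 barcodes led by Mki67 was left without a name. The dendritic-like class joined cluster 12, where 8 markers of both DC1 and DC2 were raised, with a small cluster of mregDC. At a clustering resolution of 2, cluster 12 fell into DC1-like cells and a group left without a name, which raised 8 pDC markers, with Siglech and Ccr9 among its leading genes beside the DC2 markers Cd209a, Ccl17 and Mgl2. MC38 had only 17 neutrophil-like and 34 monocyte-like barcodes, so radiation was tested in those classes in Panc02-SIY alone.

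Csf2rb and Csf2rb2 are neighbors and close copies of each other, which matters for reading their counts separately. On the GRCm38 assembly Csf2rb lies at chr15:78325752-78353847 on the plus strand and Csf2rb2 at chr15:78282507-78305721 on the minus strand, 20030 bases apart. Their coding sequences (GENCODE vM21) were 95.24% identical over 2628 aligned bases. The stretch below, coding bases 2425 to 2544 of each gene and inside a single exon, is shown because it is the same in both, so that a read from it cannot be assigned to either gene. It lies at chr15:78348919-78349038 in Csf2rb and chr15:78284410-78284529 in Csf2rb2.
Csf2rb and Csf2rb2, most alike: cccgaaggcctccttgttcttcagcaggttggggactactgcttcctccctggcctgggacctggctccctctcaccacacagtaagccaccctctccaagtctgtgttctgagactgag
The least alike stretch of the same length is shown for contrast. It starts at coding base 298 of Csf2rb and 301 of Csf2rb2, spans 2 exons and differs at 18 bases, which are printed in capitals.
Csf2rb, least alike: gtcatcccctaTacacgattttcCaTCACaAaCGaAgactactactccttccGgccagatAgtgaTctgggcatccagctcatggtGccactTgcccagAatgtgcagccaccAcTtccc
Csf2rb2, least alike: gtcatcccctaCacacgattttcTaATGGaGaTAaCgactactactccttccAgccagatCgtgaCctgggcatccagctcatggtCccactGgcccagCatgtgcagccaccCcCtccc
Of all 91-base windows of the Csf2rb transcript, 8.28% also occurred in the Csf2rb2 transcript, and the share was 8.32% in the other direction. No such window of either gene's last 500 bases, where 3' libraries place most of their reads, occurred in the other gene. How the counting treated reads from the shared stretches is not known, and the level of either gene is uncertain to that extent.

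Csf1r was high in the mononuclear phagocytes. In Panc02-SIY the mean level was 508 CPM in monocyte-like cells, 419 CPM in cluster 6 and 332 CPM in macrophage-like cells over the libraries of both treatments. Monocyte-like cells were above cluster 6 in 7 of 7 libraries, cluster 6 was above macrophage-like cells in 6 of 7, and these were above neutrophil-like cells, at 119 CPM, in 8 of 8. In MC38 the macrophage-like level was 552 CPM ± 37.1 (SD, n = 4) in untreated and 472 CPM ± 7.94 (SD, n = 4) in irradiated tumors.
The dendritic-like class was lower, at 117 CPM ± 39.4 (SD, n = 4) in untreated MC38 and 34.8 CPM ± 28.0 (SD, n = 4) in untreated Panc02-SIY. When cluster 12 was split at a finer resolution, the DC1-like cells of Panc02-SIY had 8.81 CPM untreated and 3.77 CPM irradiated, against 75.9 and 108.6 CPM in the rest of that cluster. Csf1r was therefore near the T cell level (5.60 CPM in Panc02-SIY) in DC1-like cells and higher in the unnamed rest of cluster 12, with its markers of DC2 and pDC. Mast cell- or basophil-like cells had a single Csf1r UMI-positive barcode among 99.

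Csf2ra, the GM-CSF-binding chain, lies at chr19:61223957-61228429 on the minus strand. It was spread more evenly over myeloid classes than Csf1r. In Panc02-SIY its mean was 256 CPM in monocyte-like, 249 CPM in neutrophil-like and 212 CPM in macrophage-like cells and 207 CPM in cluster 6, and neighbors in this order kept it in only 3 to 6 of the 7 or 8 libraries. The dendritic-like class stood below cluster 6 in 7 of 7 libraries, at 129 CPM. Mast cell- or basophil-like cells had 21.2 CPM and T cell-like cells 3.38 CPM. The macrophage-like level in MC38 was 282 CPM ± 14.96 untreated and 308 CPM ± 11.3 irradiated (SD, n = 4 each).

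Csf2rb was highest in neutrophil-like cells of Panc02-SIY, at 618 CPM over 8 libraries, ahead of mast cell- or basophil-like cells (473 CPM) in 7 of 8. Monocyte-like cells followed at 360 CPM, below the mast cells in 8 of 8 libraries, and mregDC-like cells at 336 CPM, where the order to the monocytes held in only 5 of 8. Macrophage-like cells had 180 CPM and cluster 6 had 98.5 CPM. The unnamed cluster 26, whose 16 barcodes raised 7 mast cell or basophil markers, had 1138 CPM in the only library with enough of them.
Csf2rb2 had another order. Mast cell- or basophil-like cells led at 325 CPM, above the dendritic-like class (81.8 CPM) in 8 of 8 libraries, and neutrophil-like cells had only 41.9 CPM. In Panc02-SIY, DC1-like cells had 24.5 CPM untreated, whereas the unnamed rest of cluster 12 had 223 CPM. The corresponding irradiated values were 30.4 and 112 CPM. Cluster 26 had 366 CPM of Csf2rb2 in its single library. Among named classes the order thus differed, since neutrophil-like cells came first for Csf2rb but not for Csf2rb2.

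Csf3r, at chr4:126024550-126044440 on the plus strand, was by far highest in neutrophil-like cells. The level in untreated Panc02-SIY neutrophils was 2480, 1975, 2143 and 1872 CPM, and in irradiated ones it was 2254, 2089, 2085 and 2030 CPM. These values overlap and are far above every other class, since eosinophil-like cells had 149 CPM, monocyte-like cells 134 CPM, cluster 6 had 76.6 CPM and macrophage-like cells 63.8 CPM.
The low Csf3r signal outside neutrophils was set against S100a9, a gene that neutrophils express at very high levels. Panc02-SIY neutrophils had 143 Csf3r UMIs per 1000 S100a9 UMIs untreated and 152 irradiated. Monocyte-like cells had 611.5 and 1264, and cluster 6 had 2502 and 1084. T cell-like cells, with only 97 and 75 Csf3r UMIs in all, had 542 and 405, so a ratio above that of neutrophils was not particular to monocytes and cluster 6.

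**Figure D1:**
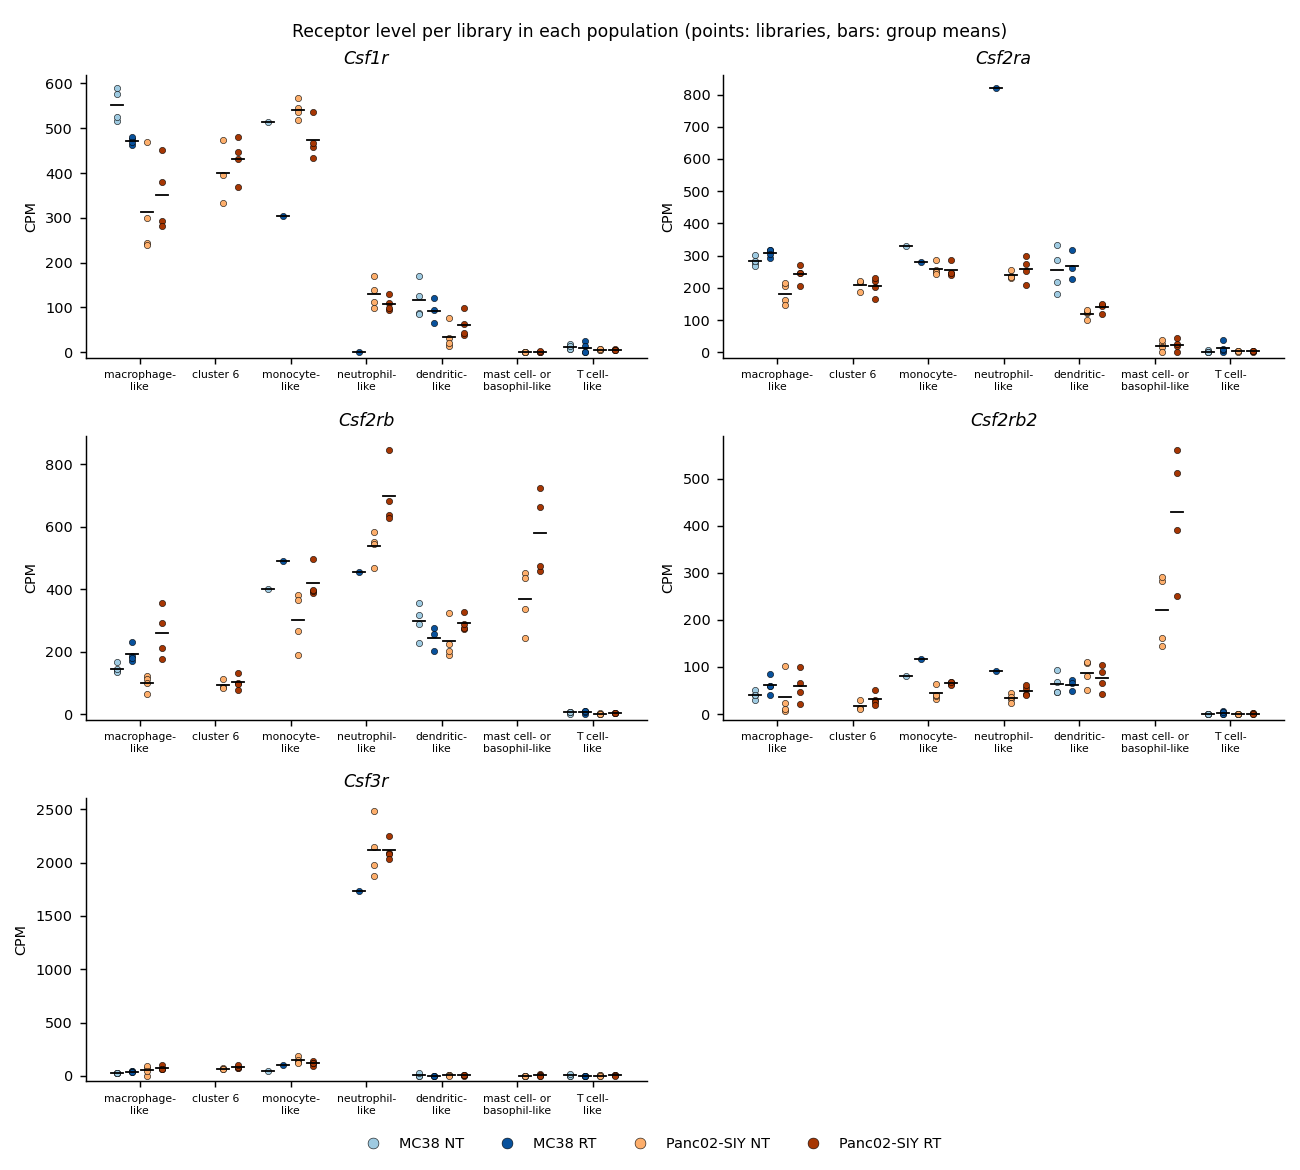
Level of each receptor in CPM (y axis, linear) by population (x axis). Each point is a library with at least 5 barcodes of that population, colored by group, and each bar is a group mean. Csf3r reached 1872 to 2480 CPM in Panc02-SIY neutrophil-like cells and was far lower in the other populations, while Csf1r was high in macrophage-like cells, cluster 6 and monocyte-like cells. The MC38 points for monocyte- and neutrophil-like cells are single libraries with few barcodes.

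Shares of barcodes with at least 1 UMI gave the same classes. They were computed after thinning every barcode to 1000 UMIs, since median depth ran from 2359 UMIs in neutrophil-like to 16083 UMIs in macrophage-like barcodes. T cell-like barcodes, with a median of 7450 UMIs, served as the background and were thinned likewise, with 115 of 5725 left out as too shallow. Intervals are exact binomial (95%) and cover counting error only. All these shares pool the barcodes of the 4 groups, whose part in a class differs between classes.
Csf1r was found in 36.9% (34.7 to 39.0) of macrophage-like and 39.6% (36.3 to 43.0) of monocyte-like barcodes, against 0.463% of T cell-like ones. The shares before thinning were 79.4%, 96.1% and 3.72%. By group, the thinned macrophage-like share was 44.6% in MC38 NT, 36.4% in MC38 RT, 21.1% in Panc02-SIY NT and 24.5% in Panc02-SIY RT. Of the 854 monocyte-like barcodes, 188 and 632 were from Panc02-SIY NT and RT, so the pooled classes differ in tumor as well. Csf2ra was found in 28.4% of macrophage-like barcodes (79.4% unthinned) against a background of 0.303% (3.25% unthinned).
Csf2rb was found in 38.7% (36.4 to 41.1) of neutrophil-like barcodes and 40.7% (30.5 to 51.5) of mast cell- or basophil-like ones, and in 0.196% of T cell-like ones. Unthinned, these shares were 61.2%, 78.8% and 1.61%. Csf2rb2 was found in 29.7% (20.5 to 40.2) of mast cell- or basophil-like barcodes and 0.0713% of T cell-like ones, or 76.8% and 0.402% before thinning. Csf3r was found in 80.4% (78.5 to 82.3) of neutrophil-like barcodes, 11.4% (9.37 to 13.8) of monocyte-like ones and 0.428% of T cell-like ones (91.9%, 60.3% and 2.50% unthinned).

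The first comparison asked whether the receptors changed in the tumor's immune cells 24 h after radiation. In Panc02-SIY all 5 receptors rose over all CD45+ cells, and in MC38 Csf2rb and Csf2rb2 rose. Calls here and below are from edgeR's quasi-likelihood test with Benjamini-Hochberg adjustment over all genes, and required an adjusted p under 0.1 together with a fold over 1.3, the thresholds of the study's methods. In Panc02-SIY, 14.7% of the 12447 genes tested were called, and in MC38 11.7%. In such sums, more cells of a type and more RNA per cell cannot be told apart.

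Csf2rb had 69.1, 59.9, 49.0 and 44.4 CPM in untreated and 148, 118, 151 and 143 CPM in irradiated Panc02-SIY. Every irradiated library was above every untreated library, and the log2 fold change was 1.27 (SE 0.12, adjusted p = 2.03e-05). Csf2rb2 had 16.0, 13.3, 11.5 and 7.0 CPM untreated and 26.5, 22.0, 29.8 and 26.8 CPM irradiated.
The Csf2rb2 groups did not overlap either, with a log2 fold change of 1.11 (SE 0.21, adjusted p = 0.00297). Csf2ra moved from a mean of 53.2 to 89.9 CPM, by 0.67 on the log2 scale (SE 0.17, adjusted p = 0.0146), although its highest untreated library (73.4 CPM) exceeded its lowest irradiated library (71.4 CPM). Csf1r had 59.1, 88.4, 84.1 and 97.5 CPM untreated and 136, 113, 136 and 154 CPM irradiated.
The Csf1r groups did not overlap, and the log2 fold change was 0.63 (SE 0.14, adjusted p = 0.00728), a call that was lost with only barcodes that had at least 80% of their UMIs in 1 library (adjusted p = 0.299). That setting kept 18112 of the 18136 Panc02-SIY barcodes but 1827 of the 2632 MC38 barcodes, and both tumors share 1 fit. Why the call was lost was not tested. Csf3r had 122, 83.0, 66.1 and 54.8 CPM untreated and 212, 149, 165 and 96.5 CPM irradiated, with a log2 fold change of 0.87 (SE 0.22, adjusted p = 0.0158). Its groups overlapped, since untreated replicate 1 was above irradiated replicate 4.

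In MC38, Csf2rb had 134, 166, 136 and 144 CPM untreated and 212, 177, 174 and 170 CPM irradiated. The groups did not overlap, and the log2 fold change was 0.43 (SE 0.12, adjusted p = 0.0325). Csf2rb2 had 37.9, 47.9, 32.3 and 39.6 CPM untreated and 75.8, 55.0, 56.4 and 38.5 CPM irradiated.
The Csf2rb2 groups overlapped through irradiated replicate 4, and the log2 fold change was 0.58 (SE 0.21, adjusted p = 0.0931). Neither call held when every barcode was counted in each library that listed it, where the log2 fold changes were 0.30 (adjusted p = 0.139) for Csf2rb and 0.40 (adjusted p = 0.256) for Csf2rb2. With only barcodes that had at least 80% of their UMIs in 1 library, they were 0.10 (adjusted p = 0.925) and 0.04 (adjusted p = 0.996). The Csf2rb call was also lost without untreated replicate 1, and the Csf2rb2 call without any 1 of 6 of the 8 MC38 libraries (NT 1, 3 and 4 and RT 1, 2 and 3). Csf1r (-0.17), Csf2ra (0.19) and Csf3r (0.41) did not pass the test. Csf1r had 454 to 547 CPM untreated and 390 to 432 CPM irradiated, which did not overlap. Csf3r had 26.6 to 31.3 CPM untreated and 33.2 to 41.1 CPM irradiated, with no overlap either. The Csf2ra groups overlapped.

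**Figure D2:**
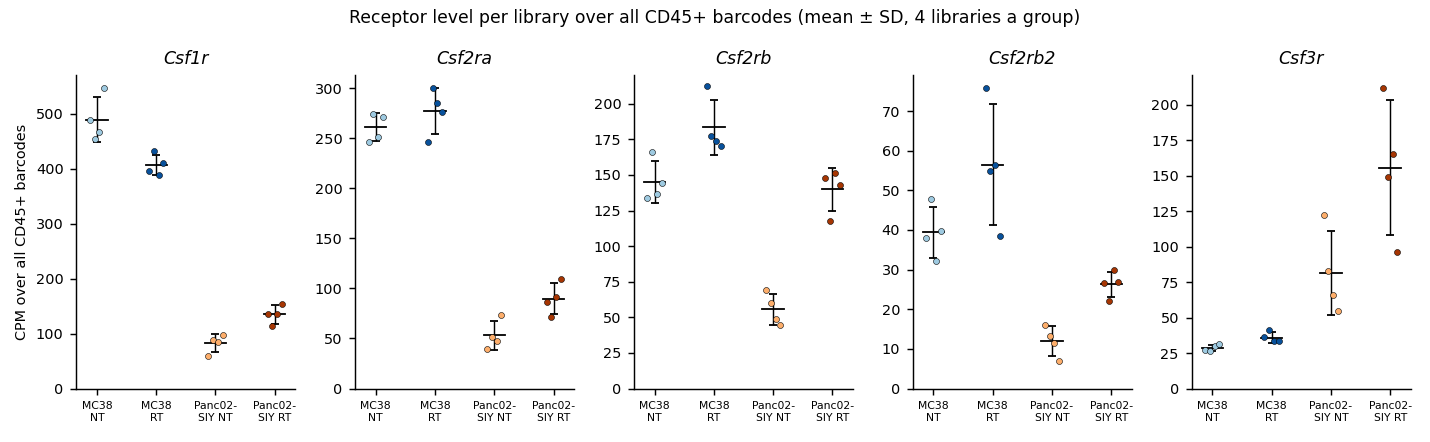
Level of each receptor in CPM over all CD45+ barcodes (y axis, from 0, with its own scale in each panel) for the 4 groups (x axis). Points are libraries, and the bar and whiskers are the mean ± SD of 4 libraries. In Panc02-SIY the 4 irradiated Csf2rb values, from 118 to 151 CPM, lay above the 4 untreated values, from 44.4 to 69.1 CPM.

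With the clustering described above, the picture within classes narrowed to Csf2rb. Among Panc02-SIY macrophage-like cells, 1 of 5 receptors was called, where 5.66% of 11452 genes were. Csf2rb had 123, 112, 98.7 and 64.8 CPM untreated and 357, 213, 292 and 177 CPM irradiated, with no overlap, and the log2 fold change was 1.45 (SE 0.23, adjusted p = 0.000502). The value for replicate 1 of the untreated group rests on 17 barcodes. The clusters in the class shifted with radiation, from 113 to 52 barcodes in cluster 20, from 11 to 51 in cluster 7 and from 130 to 138 in cluster 9.
Of the class's 249 untreated Csf2rb UMIs, 191 were from cluster 20, and of its 438 irradiated UMIs, 220 were from cluster 7, where the mean level was 422 CPM. Within cluster 20 the Csf2rb level was 79.7, 67.8 and 65.0 CPM in the untreated and 104 and 121 CPM in the irradiated libraries with enough barcodes. These values did not overlap and were not tested, and the part of the shift between clusters in the class result was not tested.
Over the alternatives and left-out libraries the Csf2rb call in the whole class was never lost, with log2 fold changes of 0.61 to 1.61. The class was drawn anew at a resolution of 2, where it took in the cluster of 1055 barcodes, and with 10 principal components. Its cells thus differed between settings, and no setting held the mix of clusters in the class fixed between treatments. Csf2rb2 in the same cells had 102, 24.5, 6.58 and 10.4 CPM untreated and 99.4, 46.4, 66.0 and 22.3 CPM irradiated. The log2 fold change of 1.48 (SE 0.61, adjusted p = 0.223) did not pass. The values for Csf1r (0.28), Csf2ra (0.38) and Csf3r (0.05) did not pass either.

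Monocyte markers moved with Csf2rb in this class. The sum of the 10 monocyte markers in Panc02-SIY macrophage-like cells was 439 CPM untreated (246 to 597) and 2725 CPM irradiated (961 to 4414). In monocyte-like cells, where Csf2rb is higher, the sum was 8634 and 9662 CPM. The part of these markers in the Csf2rb result was not tested. In cluster 6, whose monocyte marker sum was 270 CPM untreated (187 to 311) and 247 CPM irradiated (231 to 269), Csf2rb had 112, 87.4 and 82.3 CPM untreated and 77.6, 101, 96.9 and 133 CPM irradiated. There the groups overlapped, and the log2 fold change was 0.24 (SE 0.17, adjusted p = 0.703), where 0.67% of genes were called. No receptor was called in cluster 6 by edgeR or DESeq2, and Csf3r (0.45) was the only member with an unadjusted p below 0.05.

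In MC38 macrophage-like cells none of the 5 receptors passed the test, where 8.71% of genes did. Csf2rb had 139, 165, 134 and 144 CPM untreated and 230, 185, 170 and 179 CPM irradiated, which did not overlap, and a log2 fold change of 0.44 (SE 0.18, adjusted p = 0.166). Csf3r had a log2 fold change of 0.40 (adjusted p = 0.209) and Csf2rb2 of 0.57 (adjusted p = 0.319). Csf2rb and Csf3r had an unadjusted p below 0.05, and DESeq2 called no member either. Csf1r had 515 to 590 CPM untreated and 462 to 481 CPM irradiated, which did not overlap. Csf3r did not overlap either, at 27.7 to 31.7 and 33.8 to 44.7 CPM, whereas Csf2ra and Csf2rb2 did.
In cluster 7 alone, a population chosen after these values were seen, Csf2rb (0.48, adjusted p = 0.0148), Csf2rb2 (0.61, adjusted p = 0.0582) and Csf3r (0.41, adjusted p = 0.0616) rose, where 12.5% of genes were called. All 3 calls were lost when every barcode was counted, those of Csf2rb2 and Csf3r also without any 1 of 4 and 5 of the 8 MC38 libraries. The monocyte marker sum in MC38 macrophage-like cells was 3023 CPM untreated (2575 to 3659) and 4532 CPM irradiated (3850 to 4998). Its part in these values was not tested.

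No receptor passed edgeR's test or DESeq2 in the other classes of Panc02-SIY, although Csf2rb and Csf2rb2 had an unadjusted p below 0.05 in neutrophil- and monocyte-like cells. Csf2rb in neutrophil-like cells had 583, 552, 469 and 545 CPM untreated and 683, 638, 626 and 847 CPM irradiated. The groups did not overlap, but the log2 fold change of 0.42 (SE 0.16) had an adjusted p of 0.462, where 0.0346% of genes were called. Csf2rb2 had a log2 fold change of 0.65 (SE 0.27, adjusted p = 0.512).
In monocyte-like cells Csf2rb had 188, 382, 265 and 366 CPM untreated and 388, 393, 397 and 498 CPM irradiated. These groups did not overlap either, and the log2 fold change was 0.47 (SE 0.19, adjusted p = 0.493), where 0.366% of genes were called. Csf2rb2 had 32.4, 64.7, 37.7 and 40.6 CPM untreated and 68.5, 63.6, 62.6 and 68.7 CPM irradiated, with a log2 fold change of 0.60 (SE 0.21, adjusted p = 0.373) and an overlap through untreated replicate 2.
Csf3r in neutrophil-like cells had a log2 fold change of 0.03 (SE 0.14, adjusted p = 0.994), and Csf1r in monocyte-like cells of -0.21 (SE 0.14, adjusted p = 0.755). In dendritic-like cells no receptor passed in either tumor, where 0.094% of genes were called in MC38 and 0.272% in Panc02-SIY. Dendritic Csf2rb had 297 and 244 CPM in MC38 NT and RT and 235 and 290.5 CPM in Panc02-SIY NT and RT. Mast cell- or basophil-like cells were not tested. Their Csf2rb2 values were 162, 283, 292 and 146 CPM untreated and 251, 512, 390 and 562 CPM irradiated, which overlapped. Their Csf2rb values, at 243 to 452 CPM untreated and 457 to 725 CPM irradiated, did not overlap. These rest on 40 and 56 barcodes.

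**Figure D3:**
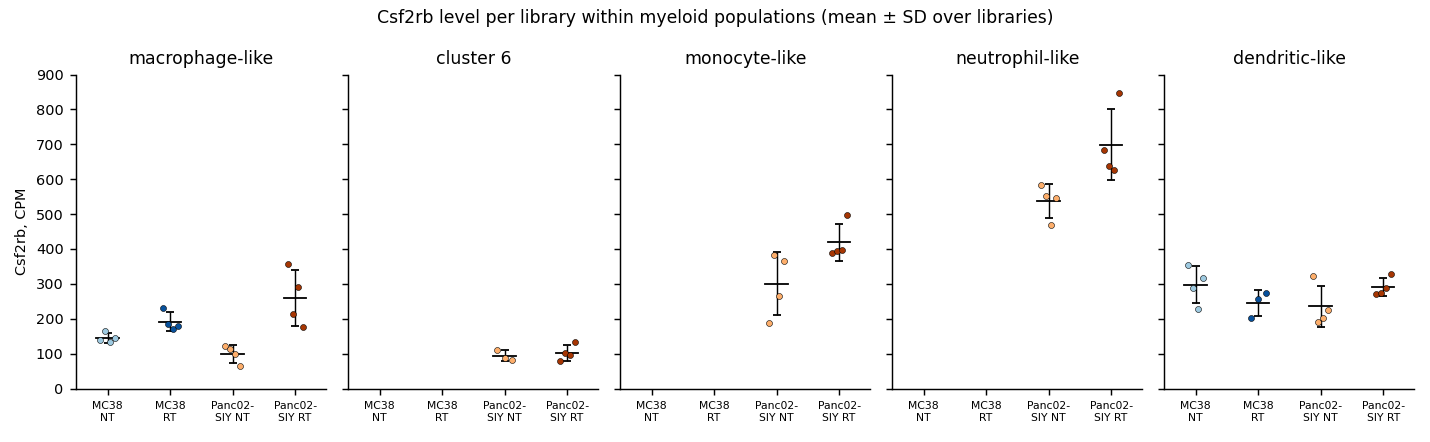
Csf2rb level in CPM (y axis, from 0, shared by all panels) within 5 myeloid populations for the 4 groups (x axis). Points are libraries, bars and whiskers are mean ± SD, and groups with fewer than 2 libraries of at least 5 barcodes are left blank. Macrophage-like cells of Panc02-SIY moved from 64.8 to 123 CPM untreated to 177 to 357 CPM irradiated, while cluster 6 values overlapped.

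**Figure D4:**
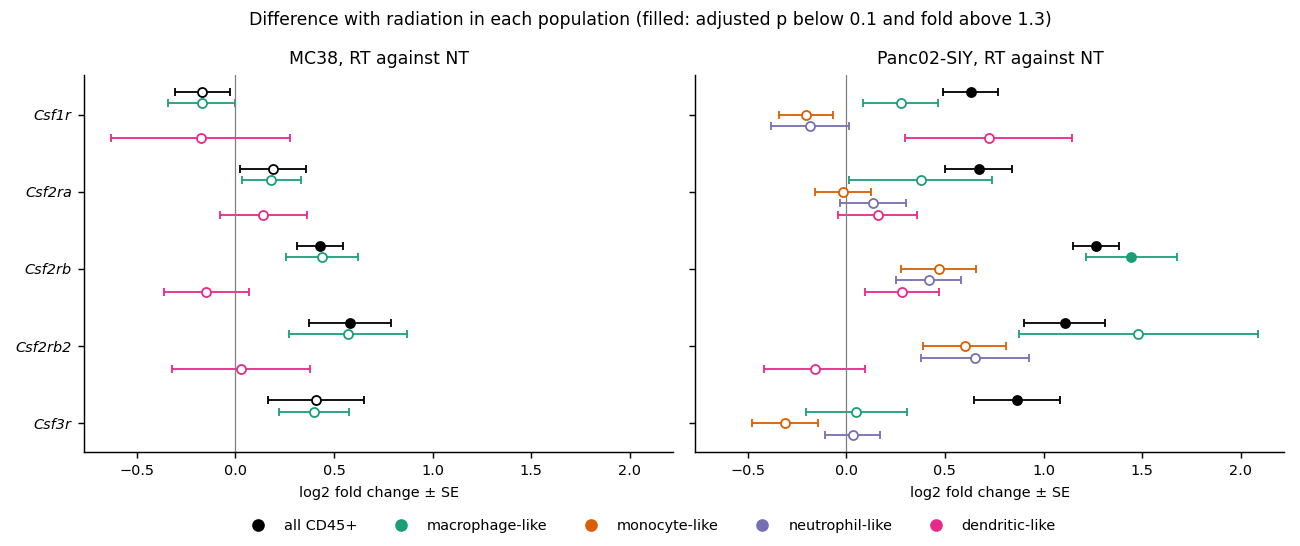
Difference with radiation in each tumor as log2 fold change ± SE (x axis) for each receptor (y axis), by population. Filled points passed an adjusted p below 0.1 and a fold above 1.3, and Csf3r in dendritic-like cells is left out because its counts were near 0. In Panc02-SIY all 5 values over CD45+ cells passed, but within classes Csf2rb in macrophage-like cells alone did.

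The rise over all CD45+ cells of Panc02-SIY went with a change in which cells were present. Monocyte-like cells were 2.49% ± 1.59 of untreated and 7.05% ± 1.32 of irradiated barcodes (SD, n = 4), with p = 0.0286 in a two-sided exact permutation test, the smallest that 4 against 4 libraries allow, and 0.0838 after adjustment over classes and contrasts. Neutrophil-like cells were 7.72% ± 2.21 and 13.2% ± 3.59 (exact p = 0.0857, adjusted 0.164).
The source of the UMIs shifted along with this. Of all Csf1r UMIs in Panc02-SIY, monocyte-like cells held 13.3% untreated and 39.9% irradiated, and cluster 6 held 56.5% and 40.0%. Of Csf2rb UMIs, monocyte-like cells held 13.3% and 37.5%, and neutrophil-like cells 26.5% and 23.6%. Of Csf2rb2 UMIs, dendritic-like cells held 34.3% and 20.1%, and monocyte-like cells 9.74% and 29.99%.
Csf3r kept its source, with 73.4% and 74.0% of its UMIs in neutrophil-like cells. In MC38, by contrast, macrophage-like cells held 97.6% and 96.5% of Csf1r, 93.5% and 92.1% of Csf2ra, 87.3% and 86.2% of Csf2rb and 90.9% and 89.1% of Csf3r UMIs. Macrophage-like cells were 62.0% ± 5.30 of untreated and 59.8% ± 6.35 of irradiated MC38 barcodes. How much of each difference over CD45+ cells came from the mix of cells was not tested.

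**Figure D5:**
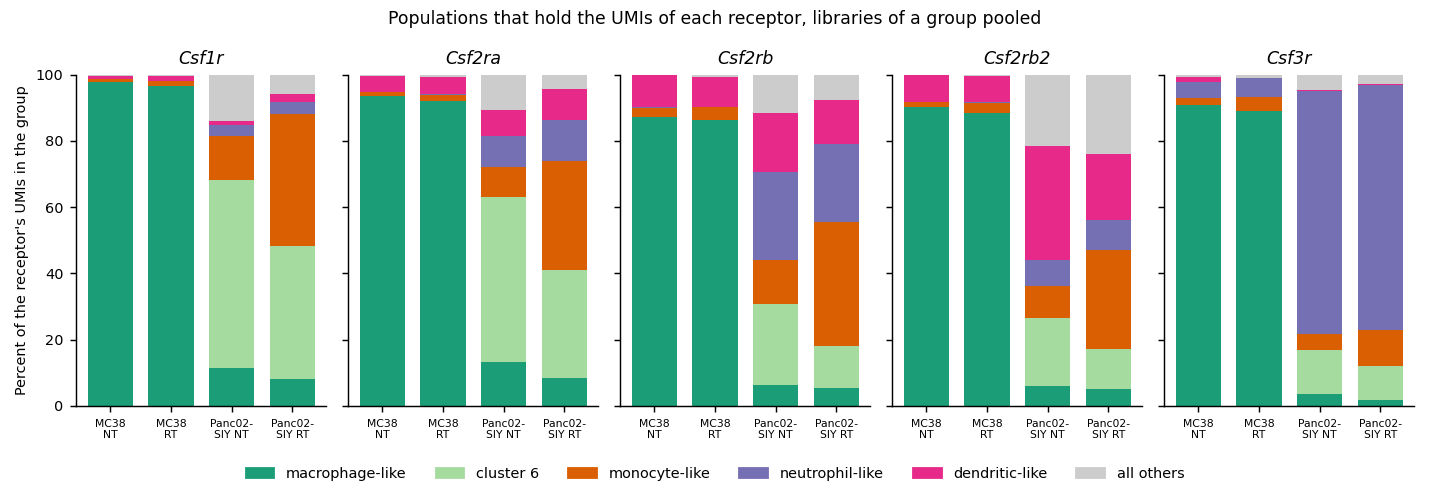
Percent of each receptor's UMIs (y axis, 0 to 100) held by each population in the 4 groups (x axis), with the libraries of a group pooled. Macrophage-like cells held 86.2% or more of the Csf1r, Csf2ra, Csf2rb, Csf2rb2 and Csf3r UMIs in MC38, while in Panc02-SIY the monocyte-like share of Csf1r UMIs went from 13.3% to 39.9%.

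The second comparison set the tumors side by side. Over CD45+ cells all 5 receptors differed in both treatment states, where 61.1% of genes were called between untreated and 58.5% between irradiated tumors. Csf1r was higher in MC38 by 2.76 on the log2 scale untreated (SE 0.15) and 1.97 irradiated (SE 0.14), and Csf2ra by 2.48 and 2.00. Csf2rb was higher by 1.59 and 0.76, and Csf2rb2 by 1.96 and 1.43.
Csf3r went the other way, with MC38 minus Panc02-SIY at -1.28 untreated (adjusted p = 0.000192) and -1.74 irradiated (adjusted p = 1.71e-05). Macrophage-like cells were 62.0% of untreated MC38 barcodes and 2.35% of untreated Panc02-SIY barcodes, and neutrophil-like cells 0.554% and 7.72%. Both class differences had the smallest exact p of 0.0286 (adjusted 0.0838). The macrophage-like share leaves out unnamed clusters with raised macrophage markers. Pooled over libraries, cluster 6 was 6.56% of untreated Panc02-SIY barcodes and 0 of untreated MC38 barcodes. Cluster 1, which was shallow and had 7 such markers raised, was 14.2% and 1.06%.

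Within macrophage-like cells all 5 receptors also differed between the untreated tumors, where 44.5% of genes were called. Csf1r had 576, 515, 525 and 590 CPM in MC38 and 470, 299, 243 and 238 CPM in Panc02-SIY, which did not overlap (log2 difference 1.17, SE 0.18, adjusted p = 2.20e-05). Of the 816 Csf1r UMIs of untreated Panc02-SIY macrophage-like cells, 720 were from cluster 20 in the libraries with enough of its barcodes. The mean untreated level there was 259 CPM, against 401 CPM in cluster 6, which is outside the class. The part of cluster 20 in the differences between tumors was not tested. Csf2ra (0.85, adjusted p = 0.00026), Csf2rb (0.89, adjusted p = 0.00195) and Csf2rb2 (1.60, adjusted p = 0.019) were higher in MC38, and Csf3r was lower (-0.87, adjusted p = 0.00264). By library, Csf2rb2 overlapped, with 30.5 to 51.5 CPM in MC38 (mean 41.0) and 6.58 to 102 CPM in Panc02-SIY (mean 35.9). Csf3r overlapped as well, with 27.7 to 31.7 CPM in MC38 and 0 to 95.4 CPM in Panc02-SIY. The Csf2ra and Csf2rb groups did not overlap.
The Csf2rb2 call was lost without Panc02-SIY NT replicate 4. With 10 principal components in place of 30 the Csf2rb difference was -0.08 and the Csf3r difference 0.49, so their direction depends on how the class is drawn. In irradiated tumors Csf1r (0.72, adjusted p = 0.00281) and Csf2ra (0.65, adjusted p = 0.00297) remained higher in MC38 and Csf3r lower (-0.52, adjusted p = 0.0819), where 40% of genes were called. The Csf3r call was lost without any 1 of 5 of these libraries (MC38 RT 3 and 4, Panc02-SIY RT 1, 2 and 4). With only barcodes that had at least 80% of their UMIs in 1 library, the irradiated Csf1r (0.38, adjusted p = 0.432) and Csf3r (adjusted p = 0.345) differences did not pass. The difference in Csf2rb was -0.11 (SE 0.20, adjusted p = 0.70).
Cluster 9 held 221 and 238 macrophage-like barcodes of MC38 NT and RT and 130 and 138 of Panc02-SIY NT and RT. At a resolution of 2, a cluster had Gm26522, Stab1 and Pid1 among its leading genes, as cluster 9 did. That finer cluster held 217 and 230 barcodes of MC38 NT and RT and 1 and 8 of Panc02-SIY NT and RT. Whether cluster 9 joined the same kind of cells from both tumors was not tested. Cluster 9 was looked at alone after these values were seen. There no receptor passed for radiation in MC38 (2.73% of genes called) or Panc02-SIY (1.36%), where Csf2rb had 1.00 (SE 0.39, adjusted p = 0.278) and was called by DESeq2, or for the difference between these effects (0.247%). Csf1r was higher in MC38 by 2.11 untreated (adjusted p = 1.35e-09) and 1.44 irradiated (adjusted p = 0.00025), and Csf2ra by 1.24 and 0.86, where 15.6% and 13.5% of genes were called and the median difference over all genes was 0.24 and 0.27. In cluster 7 of irradiated tumors, Csf2rb was lower in MC38, at 214, 177, 158 and 170 CPM against 385, 391, 452 and 459 CPM in Panc02-SIY (-0.88, SE 0.15, adjusted p = 0.00011). In that cluster 24.6% of genes were called, and the median difference over all genes was 0.30. Csf1r there had 470 CPM ± 9.84 in irradiated MC38 and 483 CPM ± 76.2 in irradiated Panc02-SIY (SD, n = 4 each), which overlapped. Its fitted difference was positive (higher in MC38) with TMM scaling and reversed with library size alone, as given below.

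In dendritic-like cells Csf1r was higher in untreated MC38 (1.84, SE 0.43, adjusted p = 0.0169), where 11.2% of genes were called. Csf2ra was higher in untreated (1.11, SE 0.20, adjusted p = 0.00143) and irradiated MC38 (1.09, SE 0.22, adjusted p = 0.00301), the latter with 11.1% of genes called. The makeup of the class differed as well, with a DC1 marker sum of 1445 CPM in MC38 and 3030 CPM in Panc02-SIY untreated, and a DC2 marker sum of 2166 and 1038 CPM, with overlapping libraries for both. Its part in these differences was not tested. With a clustering resolution of 2 the class held only DC1-like and mregDC cells, since the rest of cluster 12 was left without a name. Untreated MC38 had 10 and 13 such barcodes, against 122 and 44 in untreated Panc02-SIY. In that smaller class the untreated Csf1r difference was -1.15 and did not pass, and neither Csf2ra difference passed. None of these 3 passed with only barcodes that had at least 80% of their UMIs in 1 library. Csf2rb (0.36) and Csf2rb2 (-0.40) did not pass in untreated tumors.

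The third comparison asked whether the radiation effect differed between the tumors. Over CD45+ cells it did for Csf2rb, where 0.345% of genes were called, with MC38 minus Panc02-SIY at -0.84 (SE 0.17, adjusted p = 0.0776). This call was lost without any 1 of 7 libraries (MC38 NT 2, 3 and 4, MC38 RT 3 and 4, Panc02-SIY RT 1 and 3), where its values ran from -1.04 to -0.78 over all left-out libraries. It was also lost with only barcodes that had at least 80% of their UMIs in 1 library (-1.15, adjusted p = 0.457) and with doublets removed (-0.77, adjusted p = 0.134), while with every barcode counted it was -0.95 (adjusted p = 0.015). Csf1r had -0.80 (SE 0.20, adjusted p = 0.122) and was called by DESeq2 (adjusted p = 0.00692), with every barcode counted (adjusted p = 0.0653), with library size alone (adjusted p = 0.0282), with no filter (adjusted p = 0.0935) and without any 1 of 5 Panc02-SIY libraries (NT 1, 3 and 4 and RT 2 and 4). Within macrophage-like cells the Csf2rb difference of -1.01 (SE 0.29, adjusted p = 0.24) did not pass, where 0.122% of genes did.

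The genes around the receptors were taken from lists of the pathway. Of 6 ligands, Csf1 and Csf2 were high enough to be tested over CD45+ cells, and neither passed for radiation in either tumor. Csf1, the ligand of Csf1r, stood at 813 CPM ± 166 in untreated and 874 CPM ± 65.8 in irradiated Panc02-SIY neutrophil-like cells (SD, n = 4 each), and at 5.55 CPM in untreated MC38 macrophage-like cells. Csf2, which encodes GM-CSF, was found in a T cell cluster that it helped define, at 227 CPM ± 141 untreated and 474 CPM ± 209 irradiated in Panc02-SIY. Csf3, Il34 and Il3 were at 0.592 CPM or less on average over CD45+ cells in every group. Of 5 other growth factor receptors tested over CD45+ cells, Il3ra, which pairs with the beta chains, rose in MC38 (0.47, adjusted p = 0.065), and Il6ra rose in Panc02-SIY (0.86, adjusted p = 0.000296), where 11.7% and 14.7% of all genes were called in MC38 and Panc02-SIY.

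Of 21 signaling genes, 4 rose over CD45+ cells in MC38 (Fgr, Gab2, Jak2, Syk) and 8 in Panc02-SIY (Fes, Fgr, Gab2, Jak2, Lyn, Plcg2, Syk, Tyrobp), and none fell, where 11.7% and 14.7% of all genes were called in either direction. The list's median log2 fold change was 0.28 in MC38 and 0.32 in Panc02-SIY, beside 0.04 and -0.03 over all genes. In macrophage-like cells Jak2, the kinase that carries signals from the beta chain, rose in MC38 (0.80, SE 0.17, adjusted p = 0.00488) and in Panc02-SIY (1.13, SE 0.26, adjusted p = 0.0161). Fgr and Syk rose in MC38 macrophage-like cells as well, and the other 20 genes did not pass in Panc02-SIY, where 8.71% and 5.66% of all genes were called in MC38 and Panc02-SIY. The Panc02-SIY Jak2 call was lost without NT replicate 4, the Fgr call without any 1 of 6 MC38 libraries and the Syk call without any 1 of the 8.

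Of 14 feedback genes, Cish, a STAT5-induced inhibitor, was the only one to rise in macrophage-like cells, by 0.58 in MC38 (SE 0.18, adjusted p = 0.0672) and 1.14 in Panc02-SIY (SE 0.35, adjusted p = 0.0751), where 8.71% and 5.66% of all genes were called. The MC38 call was lost without any 1 of 6 libraries and the Panc02-SIY call without any 1 of 5. Over CD45+ cells Socs1 rose in MC38, and Socs3 and Spred1 rose and Sla2, a T cell adaptor, fell in Panc02-SIY, where 11.7% and 14.7% of all genes were called in MC38 and Panc02-SIY.
Of 12 genes listed as STAT5 or GM-CSF responses, 11 were tested in macrophage-like cells, where 8.71% of all genes were called in MC38 and 5.66% in Panc02-SIY. In MC38, 4 rose (Bcl2l1, Bcl6, Cish, Mcl1) and the median was 0.54, beside -0.03 over all genes. In Panc02-SIY 6 rose (Bcl2l1, Cish, Il1rn, Mcl1, Osm, Pim1) and the median was 1.14, beside -0.02. Osm, which encodes the cytokine oncostatin M, rose by 3.60 on the log2 scale (SE 0.35, adjusted p = 6.16e-06) in Panc02-SIY macrophage-like cells and by 0.93 (SE 0.21, adjusted p = 0.094) in monocyte-like cells, where the call was lost without any 1 of 6 libraries.
None of the 10 genes of this list tested in neutrophil-like cells passed, where 0.0346% of all genes did, and 3 of them (Bcl2l1, Cish, Il1rn) had an unadjusted p below 0.05. In the same macrophage-like cells the monocyte marker sum and, in Panc02-SIY, the clusters in the class also differed with radiation, as given above, and their part in these counts was not tested.

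Among 12 myeloid transcription factors, Cebpb rose in macrophage-like cells of both tumors, by 0.62 in MC38 (SE 0.20, adjusted p = 0.0736) and 1.28 in Panc02-SIY (SE 0.22, adjusted p = 0.00132), where 8.71% and 5.66% of all genes were called. The MC38 call was lost without any 1 of the 8 MC38 libraries. Klf4 (1.88, adjusted p = 0.00025) rose in Panc02-SIY as well, but with 10 principal components it was at -0.22. Spi1, which encodes PU.1, a factor known to act at the promoters of CSF receptor genes, rose over CD45+ cells in Panc02-SIY (0.62, SE 0.10, adjusted p = 0.00142). Within Panc02-SIY macrophage-like cells Spi1 had 0.08 (adjusted p = 0.886).

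Promoter entries of RefSeq (GRCm38.p6, 250 bases before to 50 after the start) matched 3 of the 5 genes, Csf2ra, Csf2rb2 and Csf3r. The short PU.1 core GAGGAA, searched on both strands (TTCCTC on the other strand), was present in all 3, and in 28.28% of all 32851 promoters of that length. Windows of 30 bases around the match are shown to place it, with the match in capitals. Csf2rb2 held a second match at 29 after the start, which is not shown, and Csf2ra a second one at -8, which lies in lower case in its window.
Csf3r, at -86: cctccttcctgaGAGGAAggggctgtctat
Csf2rb2, at -167: ctctgtgtctgcTTCCTCcagagaagtcag
Csf2ra, at -14: caacctgcagatGAGGAAgaggaagcggga
These matches are letters in a window and not evidence of binding. The Csf3r window lies at chr4:126024561-126024590 on the plus strand, the Csf2rb2 window at chr15:78305871-78305900 and the Csf2ra window at chr19:61228415-61228444, both on the minus strand. Offsets count from the RefSeq start, which can differ from the start of the gene position given above. The Csf3r window thus lies inside the gene span given above, which starts at chr4:126024550.

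Genes with the pattern most like each receptor were ranked by Pearson's r of log2(CPM + 10) over 90 pairs of class and library in 11 classes. Pairs from the same library share its depth, so r is a description only. Csf1r was most like Tgfbi (r = 0.92), Csf2ra like Cd300c2 (0.93) and Il1b (0.92), and Csf3r like Trem3 (0.96). Csf2rb was most like Pirb (0.93), and its copy Csf2rb2 was most like Csf2rb (0.90).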

How the data were processed

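The authors deposited UMI counts per gene and barcode for 16 libraries (10x 3' v3 chemistry), made per the submitters' notes with bcl2fastq 2.20.0, Cell Ranger 3.1.0 and the mm10 reference. Each barcode was kept in the richest library of its tumor. Counts were clustered in scanpy 1.11.5 (2000 variable genes without the members, 30 components, 20 neighbors, Leiden resolution 1), and clusters were named from at least 3 raised markers. Doublets were removed only in an alternative. UMIs were summed per library and class (at least 5 barcodes) and tested in edgeR 4.0.16 with TMM scaling and all 4 groups in 1 fit, after a filter on low counts (minimum 3 in classes, 10 over CD45+ cells, total 15). The script was tested on simulated counts. Shares were compared by exact permutation tests. Beside the members, genes were named where a list member passed, led a class or ranked among the 5 most alike. The members, lists and clusters 6, 7 and 9 were chosen with earlier results of these data known. Alternatives included DESeq2 1.42.0. Some genes of the lists are not reported here.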

Additional observations from a re-analysis of the deposited data

Results flagged for a closer look

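Of 75 groups of 4 libraries looked at, 4 had a library far from the other 3, and chance gives about 1 in 20 such groups. In irradiated Panc02-SIY, monocyte-like cells of replicate 4 had 284.8 CPM of Csf2ra (others 240.9 to 246.9) and 497.7 CPM of Csf2rb (others 388.5 to 396.9), from 241 barcodes. Dendritic-like cells of replicate 2 had 117.6 CPM of Csf2ra (others 144.2 to 148.5), from 81 UMIs in 53 barcodes. Macrophage-like cells of replicate 1 had 99.4 CPM of Csf3r (others 61.76 to 65.69), from 17 UMIs in 48 barcodes. The radiation effect on Csf2rb over CD45+ cells differed between the tumors, at -0.84 on the log2 scale for MC38 minus Panc02-SIY by the test of the difference.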

How the results depend on the processing

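Counts of member and population pairs called (of the CD45+ cells and 4 classes) were recomputed under each alternative. The main fits called 0.094% to 11.7% of all genes for MC38 radiation, by population, and 0.0346% to 14.7% for Panc02-SIY radiation. Between untreated tumors they called 11.2% to 61.1%, between irradiated tumors 11.1% to 58.5%, and for the difference in radiation effect 0% to 0.345%. Shares under each alternative are not set beside the counts, so these counts are not a result about the receptors. For MC38 radiation the count was 2. It was 4 with 10 components or resolution 2, 5 with only the groups compared, 1 at an adjusted p below 0.05 or a log2 fold change above 0.58, and 0 with all barcodes, library size alone, no filter, thinned counts or a top share of 80%, and 0 to 2 with a library left out. For Panc02-SIY radiation the count of 6 stayed at 5 to 6 (6 to 7 with a library left out). Between untreated tumors the count of 12 was 9 to 12, and between irradiated tumors the count of 9 was 6 to 10, with 11 to 12 and 8 to 9 when a library was left out. For the difference in radiation effect the count of 1 was 2 with DESeq2, library size alone, no filter or the replicate block, 3 with all barcodes and 0 with doublets removed, a top share of 80% or an adjusted p below 0.05, and 0 to 3 with a library left out. Class shares that differed numbered 15, 15 to 21 under the alternatives and 0 to 0 with a library left out. All 15 had the smallest exact p of 0.0286 and passed the adjustment through being tied at it. With a library left out, contrasts of 3 against 4 libraries cannot reach that p. The contrasts still at 4 against 4 then fail the adjustment, since fewer are tied.

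The MC38 macrophage-like level of Csf2ra moved from 294.9 to 422.3 CPM with a top share of 80%. Without thinning the shares of barcodes with a UMI were 79.39% for Csf1r and for Csf2ra in macrophage-like, 61.18% for Csf2rb in neutrophil-like, 76.77% for Csf2rb2 in mast cell- or basophil-like and 91.85% for Csf3r in neutrophil-like cells. Directions reversed for Csf1r between irradiated tumors in cluster 7 with library size alone (-0.0484), Csf1r between untreated tumors in dendritic-like cells at resolution 2 (-1.15), Csf2rb (-0.0848) and Csf3r (0.49) between untreated tumors in macrophage-like cells with 10 components, Csf3r with MC38 radiation in macrophage-like cells with thinned counts (-0.0688), and Egr2 (-0.0067) and Klf4 (-0.22) with Panc02-SIY radiation in macrophage-like cells with 10 components, where the median over all genes was 0.36. At resolution 2 the dendritic-like class held only DC1-like and mregDC cells, as given above. The causes were not tested.

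Of 1672 recomputed single values, chosen after results were seen, 1399 kept direction and side of the threshold, 241 lost the call, 25 gained it and 7 reversed. Over CD45+ cells, genes higher and lower with radiation numbered 901 and 554 for MC38. The Panc02-SIY numbers were 957 and 870. Library size alone gave 511 and 1049 for MC38. For Panc02-SIY it gave 1243 and 528, and RLE scaling gave 1090 and 694. In MC38 macrophage-like cells they were 449 and 548, against 354 and 840 with library size alone. Libraries of the same number correlated over CD45+ cells by -0.03 to 0.16 in MC38 and -0.19 to 0.81 in Panc02-SIY, and the numbers were not taken to pair them. In Panc02-SIY the same-numbered irradiated library was the best match of untreated replicates 1 (0.56), 3 (0.31) and 4 (0.81), but not of replicate 2. In macrophage-like cells this held for replicates 1 (0.34) and 4 (0.48) alone. Whether the Panc02-SIY numbers mark a pairing is not known, and the main tests did not use one. The member gained under the replicate block was Csf1r over CD45+ cells (-0.81, adjusted p = 0.0549). The small number of barcodes limits MC38 neutrophil- and monocyte-like cells, which were not tested.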
